A study of Macaca mulatta with 24 samples.

Results

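The genes described here write, erase and read DNA methylation. They are the DNA methyltransferases *DNMT1*, *DNMT3A* and *DNMT3B*, the dioxygenases *TET1*, *TET2* and *TET3*, the maintenance factor *UHRF1*, the reader *MBD2* and the *DNMT1*-associated factor *DMAP1*. The 9 genes were chosen by name, as rows of the count table whose Ensembl identifier maps to one of these symbols. They are 9 of the 32386 genes in the table, each symbol matched 1 identifier, and all 9 were among the 15207 genes that passed the filter on low counts.

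The libraries were made from omental white adipose tissue (WAT), a visceral fat depot, of young adult female rhesus macaques, with 6 animals in each of 4 groups and 1 library per animal. Control animals (*C*) carried cholesterol implants and ate monkey chow. The *T* animals ate chow and carried testosterone implants, meant to mimic hyperandrogenemia, the *WSD* animals carried cholesterol implants and ate a high-fat Western-style diet, and the *T* + *WSD* animals received both treatments. Treatment lasted 3 years, biopsies were taken in the third year, and the labels give every animal an age of 4 years, while the methods of the study state a higher age at biopsy. The tissue was whole, so fewer cells of a type and less RNA per cell cannot be told apart in any value below.

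DNA methylation in mammals is the addition of a methyl group to cytosine, mostly where a guanine follows. De novo enzymes set the mark, a maintenance enzyme copies it to the new strand when DNA is replicated, and TET enzymes oxidize it as a first step of its removal. Readers bind the methylated sites and bring in complexes that modify or remodel chromatin. In fat, the mark has been studied as a layer of control on adipocyte differentiation and on the response to diet.

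Total counts per library ran from 6899185 to 28270776. In 8 libraries, 2 in each group, a single gene (ENSMMUG00000038258) took 9.92 to 54.7% of all counts, against 0.879 to 2.51% in the other 16, and these 8 are called high-share libraries below. They were also the 8 with the fewest total counts, 6899185 to 17538167 against 20177588 or more. High share and low depth therefore cannot be told apart. Adipocyte markers were detected in every library, at summed levels of 2186 to 25325 counts per 1000000 (CPM), after the library scaling described below. The mesothelial markers, which mark the cells lining the omentum, summed to 283 to 3261 CPM in *T* + *WSD*, 2767 to 39835 in *C*, 2852 to 17997 in *T* and 808 to 6218 in *WSD*. Their extremes were high-share libraries, *C* replicate 1 at the top and *T* + *WSD* replicate 8 at the bottom, and *C* replicate 1 also had the lowest adipocyte sum.

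All CPM levels here, the sums above included, were scaled by TMM, an edgeR library scaling. They compare libraries for 1 gene or list, not genes with each other, since no gene lengths were used. A gene was called changed when edgeR's quasi-likelihood test put its adjusted p below 0.05 and its levels differed by more than 1.5-fold. The interaction, which asks whether testosterone acted differently under the diet, needed an adjusted p under 0.1.

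Of the 9 genes, 1 was called in *T* + *WSD* against *C*, the reader *MBD2*, which rose. For comparison, 10.01% of all tested genes were called there, and 4.72% were called higher. Adjusted p was under 0.05 for 2 of the 9, *MBD2* and *DMAP1*, where 17.1% of all tested genes met that without the fold threshold. *DMAP1* was lower in *T* + *WSD*, short of the 1.5-fold threshold. The study names *DMAP1* among its differentially expressed genes, for which its methods set an FDR under 0.05 and a 1.5-fold change. Here DESeq2 at these thresholds called *MBD2* and not *DMAP1* in *T* + *WSD* against *C*. The median log2 fold change over the 9 genes was 0.31, beside -0.04 over all tested genes, with 5 genes above 0 and 4 below.

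None of the 9 genes was called in any other comparison. In *WSD* against *C* and in *T* against *C* the call rate over all tested genes was itself 0%, although 2807 and 1312 genes had an unadjusted p under 0.05, and DESeq2 called 238 and 7 genes. None of the 9 genes had an unadjusted p under 0.05 in either comparison, and DESeq2 called none of them. Against *WSD*, where 0.815% of tested genes were called, *T* + *WSD* gave 0 calls and 0 unadjusted p under 0.05 among the 9 genes. Against *T*, where 3.77% of tested genes were called, it gave 0 calls, 3 genes with an unadjusted p under 0.05 (*DMAP1*, *MBD2* and *TET1*) and 1 with an adjusted p under 0.05, *DMAP1*, against 6.50% of all tested genes. The interaction gave 0 calls and 0 unadjusted p under 0.05 among the 9 genes, with 0.809% of all tested genes called. DESeq2 called none of the 9 genes in these 3 comparisons either. Comparisons that share a group also share its libraries, so they are not independent of each other.

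**Figure D1:**
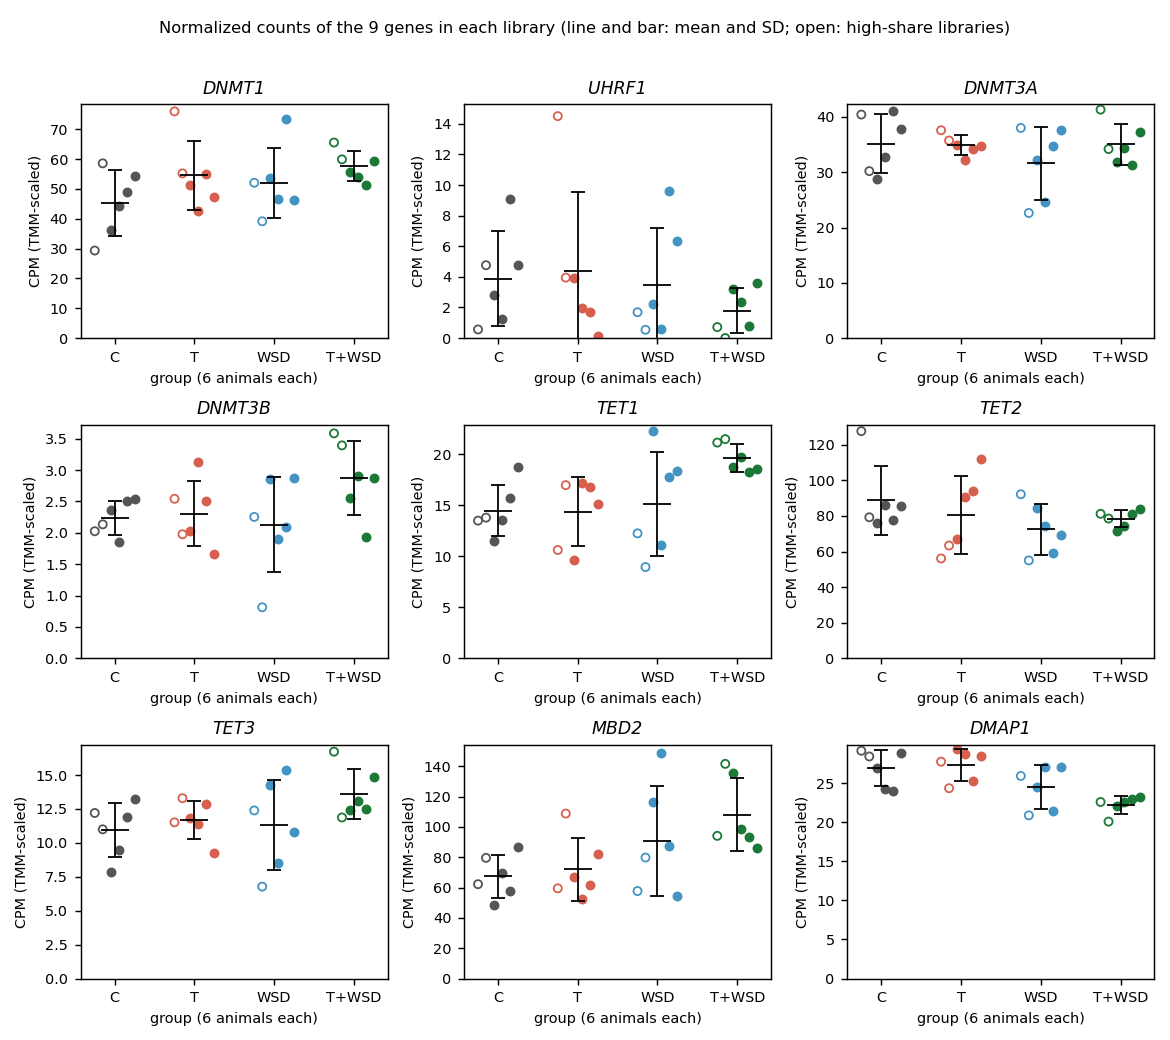
CPM (TMM-scaled, linear axis from 0) of each of the 9 genes in the 24 libraries, by group; points are animals, open points are high-share libraries, and the line and bar give the mean and SD of 6 animals. The *MBD2* points of *T* + *WSD* lie between 85.9 and 142 CPM with 5 of 6 above every *C* animal, and the *DMAP1* points of *T* + *WSD* lie between 20.1 and 23.2 CPM, below every *C* and *T* animal.

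*MBD2* (ENSMMUG00000003136) encodes a protein that binds methylated sites and recruits the NuRD remodelling and deacetylase complex. It ran from 48.3 to 87.1 CPM in *C*, with a median of 65.8, and from 52.2 to 109 CPM in *T*, with a median of 64.6. In *WSD* it ran from 54.5 to 149 CPM with a median of 83.8, and in *T* + *WSD* from 85.9 to 142 CPM with a median of 96.3. Of the 6 *T* + *WSD* animals, 5 lay above every *C* animal, while the *WSD* animals overlapped with all 3 other groups.

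Mean *MBD2* levels were 108 ± 24.01 CPM in *T* + *WSD*, 90.9 ± 36.4 in *WSD*, 72.0 ± 20.7 in *T* and 67.4 ± 14.3 in *C* (SD, n = 6 each). Each group in this order lay within the SD of the next. The rise in *T* + *WSD* against *C* was 0.68 on the log2 scale (SE 0.23, adjusted p = 0.0415), a 1.60-fold change. For the single treatments the log2 fold changes against *C* were 0.44 (SE 0.23, adjusted p = 0.302) with diet and 0.09 (SE 0.23, adjusted p = 0.936) with testosterone. Against *T*, *T* + *WSD* was 0.59 higher on the log2 scale, with an adjusted p of 0.1098, and the interaction coefficient was 0.15 (SE 0.32, adjusted p = 0.910).

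The *MBD2* call rested on single animals. It was lost without any 1 of *C* replicates 1, 3, 4 and 5 or *T* + *WSD* replicates 7, 8, 9 and 10, with edgeR adjusted p of 0.0814, 0.0983, 0.0595, 0.0667, 0.0514, 0.0917, 0.0925 and 0.0577 in that order, while the log2 fold change stayed between 0.60 and 0.77. Without the 8 high-share libraries it was 0.67 (SE 0.27, adjusted p = 0.175). The fit without them called 78 of 15448 tested genes in this comparison, where the fit of all 24 libraries called 1522 of 15207. Against *T*, *MBD2* passed the thresholds without *T* replicate 14, the *T* animal with the highest level, at 0.74 (edgeR adjusted p = 0.0472).

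Markers of other cells moved with *MBD2*. Of the 9 mesothelial markers tested, 8 were called lower in *T* + *WSD* than in *C*, with a median log2 fold change of -2.36. Over the 24 libraries *MBD2* ran against the mean log2 level of that list (Pearson r = -0.64, adjusted permutation p = 0.00919; Spearman rho = -0.62, adjusted permutation p = 0.0167), with r = -0.58 after leaving out the 2 libraries farthest from the median and r = -0.37 within groups. It ran with the adipocyte list (r = 0.55, adjusted permutation p = 0.0145; rho = 0.72, adjusted permutation p = 0.00432), with r = 0.70 after leaving out 2 libraries and 0.38 within groups. With the endothelial list r was 0.65 (adjusted permutation p = 0.00919; rho = 0.66, adjusted permutation p = 0.00877), 0.57 after leaving out 2 libraries and 0.48 within groups. Of the marker lists, that of neutrophil and erythroid genes also passed (r = -0.54, adjusted permutation p = 0.0394; rho = -0.58, adjusted permutation p = 0.0264), with r = -0.58 after leaving out 2 libraries and -0.44 within groups. With the mesothelial mean as a covariate the log2 fold change of *MBD2* in *T* + *WSD* against *C* was 0.25 (SE 0.33, adjusted p = 0.9999). That fit called 0 of the 15207 tested genes in this comparison, where the fit without the covariate called 1522. Its adjusted p, here and for the genes below, therefore does not set a gene apart from the rest. *MBD2* also ran against lists of related genes. With other writers and maintenance factors r was -0.73 (adjusted permutation p = 0.00324), and -0.57 within groups. With the NuA4/TIP60 partners of *DMAP1* r was -0.63 (adjusted permutation p = 0.00919), and -0.42 within groups. With its own NuRD partners r was -0.60 (adjusted permutation p = 0.0145), and -0.44 within groups. In all, 144 such relations were computed, between the 9 genes and 16 lists of markers and related genes, with p-values adjusted over all 144. The permutations shuffled all 24 libraries without regard to group. Their p-values, here and below, therefore also count differences between the groups, and the r within groups was not tested.

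*DMAP1* (ENSMMUG00000011645) encodes a protein first described as a partner of *DNMT1* and is also a subunit of the NuA4/TIP60 acetyltransferase complex. In *T* + *WSD* it ran from 20.1 to 23.2 CPM, with a median of 22.6. It ran from 23.97 to 29.1 CPM in *C*, with a median of 27.7, from 24.3 to 29.4 in *T*, with a median of 28.1, and from 20.9 to 27.1 in *WSD*, with a median of 25.2. All 6 *T* + *WSD* animals lay below every *C* animal and below every *T* animal, and they overlapped with *WSD*.

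The means in falling order were 27.3 ± 2.04 CPM in *T*, 26.9 ± 2.33 in *C*, 24.5 ± 2.75 in *WSD* and 22.2 ± 1.13 in *T* + *WSD* (± SD, 6 animals each), and no group lay further from the next than the larger of the 2 SDs. *DMAP1* was 17.2% lower in *T* + *WSD* than in *C* (log2 fold change -0.27, SE 0.08, adjusted p = 0.0232) and 18.5% lower than in *T* (-0.29, SE 0.08, adjusted p = 0.0328). It had the smallest spread of the 9 genes, with an edgeR biological coefficient of variation of 10.8%. Of the 9 genes it was the one whose *T* + *WSD* and *C* levels did not overlap, where 7.61% of all tested genes did not overlap. Against *T*, *DMAP1* and *TET1* did not overlap, where 6.10% of all tested genes did not. The diet alone gave -0.13 (SE 0.08, adjusted p = 0.365), testosterone alone 0.02 (SE 0.08, adjusted p = 0.962), and the interaction coefficient was -0.16 (SE 0.11, adjusted p = 0.573).

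Single animals also decided whether *DMAP1* passed an adjusted p of 0.05. Against *C*, edgeR's adjusted p was 0.0803 and 0.0600 when *C* replicate 1 or 2 was left out and 0.0740 without *T* + *WSD* replicate 8, all 3 of them high-share libraries, and the log2 fold change stayed between -0.30 and -0.23. Without all 8 high-share libraries it was -0.18 (SE 0.09, adjusted p = 0.280), in the fit that called 78 of 15448 tested genes. Against *T*, adjusted p lay between 0.0516 and 0.0804 without any 1 of *T* replicates 13, 15, 16 and 18 or *T* + *WSD* replicates 7, 8, 9 and 10.

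*DMAP1* levels ran with the mesothelial list over the 24 libraries (r = 0.69, adjusted permutation p = 0.00461; rho = 0.61, adjusted permutation p = 0.0203). The correlation was 0.59 after leaving out 2 libraries and 0.36 within groups. Against the adipocyte list r was -0.51 (adjusted permutation p = 0.0353; rho = -0.52, adjusted permutation p = 0.0611), -0.44 after leaving out 2 libraries and -0.30 within groups. *DMAP1* also ran with other readers (r = 0.66, adjusted permutation p = 0.00919, and 0.56 within groups). With its NuA4/TIP60 partners r was 0.65 (adjusted permutation p = 0.00919), and 0.37 within groups. With other writers and maintenance factors r was 0.63 (adjusted permutation p = 0.0101), and 0.29 within groups. With the mesothelial mean as a covariate the *T* + *WSD* difference from *C* was -0.15 (SE 0.12, adjusted p = 0.9999).

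**Figure D2:**
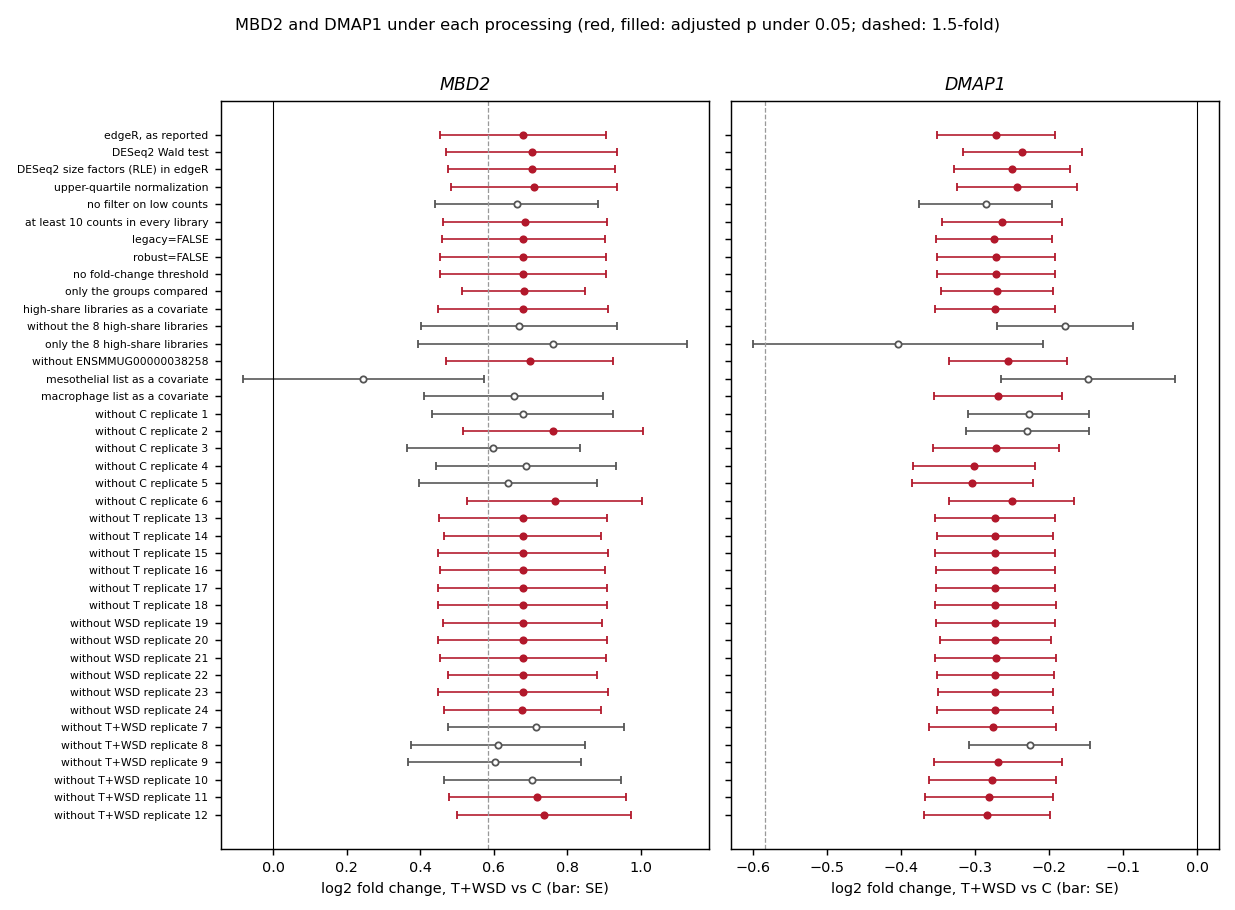
Log2 fold change of *MBD2* and *DMAP1* in *T* + *WSD* against *C* (horizontal axes, bars are SE) as reported and under each other processing or with each library left out; red filled points have an adjusted p under 0.05, and the dashed line is 1.5-fold. All *MBD2* points are above 0 and all *DMAP1* points below 0; the *MBD2* point nearest 0, at 0.25, is the fit with the mesothelial covariate.

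*DNMT1* (ENSMMUG00000014604), the maintenance methyltransferase, ran from 51.3 to 65.6 CPM in *T* + *WSD*, 29.4 to 58.6 in *C*, 42.5 to 76.0 in *T* and 39.2 to 73.6 in *WSD*. Medians were 57.5, 46.6, 53.1 and 49.4 CPM in the same order. The 4 groups overlapped, and 3 of the 6 *T* + *WSD* animals lay above every *C* animal.

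In mean level the order was *C* (45.3 ± 11.1 CPM), *WSD* (51.9 ± 11.8), *T* (54.5 ± 11.6) and *T* + *WSD* (57.7 ± 5.06), each within the SD of the next (n = 6 each). The log2 fold change in *T* + *WSD* against *C* was 0.35 (SE 0.16) with an unadjusted p of 0.0405 and an adjusted p of 0.136 in edgeR. It was 0.27 (SE 0.16, adjusted p = 0.638) with testosterone alone and 0.20 (SE 0.16, adjusted p = 0.511) with diet alone.

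*DNMT1* ran with the macrophage markers, with the highest r of the 9 genes. Over 24 libraries r was 0.74 (adjusted permutation p = 0.00288) and rho 0.74 (adjusted permutation p = 0.00374), r was 0.66 after leaving out 2 libraries, and r was 0.76 within groups. *DNMT1* also ran with the fibroblast list (r = 0.63, adjusted permutation p = 0.00919), with rho = 0.53 (adjusted permutation p = 0.0554) and r = 0.67 within groups. With the smooth muscle and pericyte list r was 0.58 (adjusted permutation p = 0.0202), rho 0.51 (adjusted permutation p = 0.064) and r within groups 0.42. The macrophage list summed to 212 to 1159 CPM in *C* and 564 to 984 CPM in *T* + *WSD*, and 1 of its 8 tested genes, *CD163L1*, was called higher in *T* + *WSD* than in *C*. With the macrophage mean as a covariate, the *DNMT1* log2 fold change in *T* + *WSD* against *C* was 0.16 (SE 0.12, adjusted p = 0.412). Against the cell division list *DNMT1* had r = 0.46 (adjusted permutation p = 0.0864) and rho = 0.37 (adjusted permutation p = 0.18). That r was 0.39 after leaving out 2 libraries and 0.63 within groups. With the NuA4/TIP60 partners of *DMAP1* the r of *DNMT1* was -0.67 (adjusted permutation p = 0.00919), and -0.68 within groups.

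*UHRF1* (ENSMMUG00000012705) encodes the protein that recognizes hemimethylated DNA behind the replication fork and brings *DNMT1* to it. It was a low-count gene here, with 0 to 239 counts per library and a median of 52. Its lowest, median and highest levels were 0.562, 3.79 and 9.09 CPM in *C*, and 0.156, 2.95 and 14.5 CPM in *T*. They were 0.542, 1.94 and 9.60 CPM in *WSD*, and 0, 1.59 and 3.58 CPM in *T* + *WSD*. The 0 was in *T* + *WSD* replicate 8, where 3 counts, the limit that a count of 0 allows, would be 0.848 CPM.

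The means of *UHRF1* were 4.37 ± 5.17 CPM in *T*, 3.87 ± 3.09 in *C*, 3.497 ± 3.68 in *WSD* and 1.78 ± 1.47 in *T* + *WSD* (± SD, 6 animals each), and every difference was smaller than the larger SD of the groups compared. In *T* + *WSD* against *C* the log2 fold change was -1.002 with an SE of 0.84 (edgeR adjusted p = 0.436), so a change of this size was not detectable with 6 animals a group at this spread. The edgeR biological coefficient of variation was 96.3%, the largest of the 9 genes. The *T* against *C* estimate of 0.15 (SE 0.82) turned to -0.74 (SE 0.81, adjusted p = 0.769) without *T* replicate 13, the library at 14.5 CPM.

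*UHRF1* followed the cell division genes. The list holds 17 genes, among them *MKI67*, *TOP2A* and the MCM helicase genes, and *UHRF1* is not in it. Over the 24 libraries *UHRF1* and the mean of the list had r = 0.91 and rho = 0.96 (adjusted permutation p = 0.00144 for both, from the smallest p that the 100000 permutations can give, 1e-05). The correlation was 0.90 without the 2 libraries farthest from the median and 0.92 within groups. *UHRF1* also ran with the fibroblast list (r = 0.65, adjusted permutation p = 0.00919), with rho = 0.68 (adjusted permutation p = 0.00774) and r = 0.69 within groups. With other writers and maintenance factors its r was 0.72 (adjusted permutation p = 0.00324), 0.53 after leaving out 2 libraries and 0.75 within groups. The 3 tested genes most like *UHRF1* in log2 level over the 24 libraries were *MYBL2* (r = 0.96), *FOXM1* (r = 0.95) and *EXO1* (r = 0.93). Of the 17 cell division genes, none was called in *T* + *WSD* against *C* and none had an unadjusted p under 0.05, and their median log2 fold change was -0.52. The values with the smallest p were *TYMS*, which makes thymidylate, at -0.69 (adjusted p = 0.269) and the helicase subunit *MCM5* at -0.59 (adjusted p = 0.288).

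**Figure D3:**
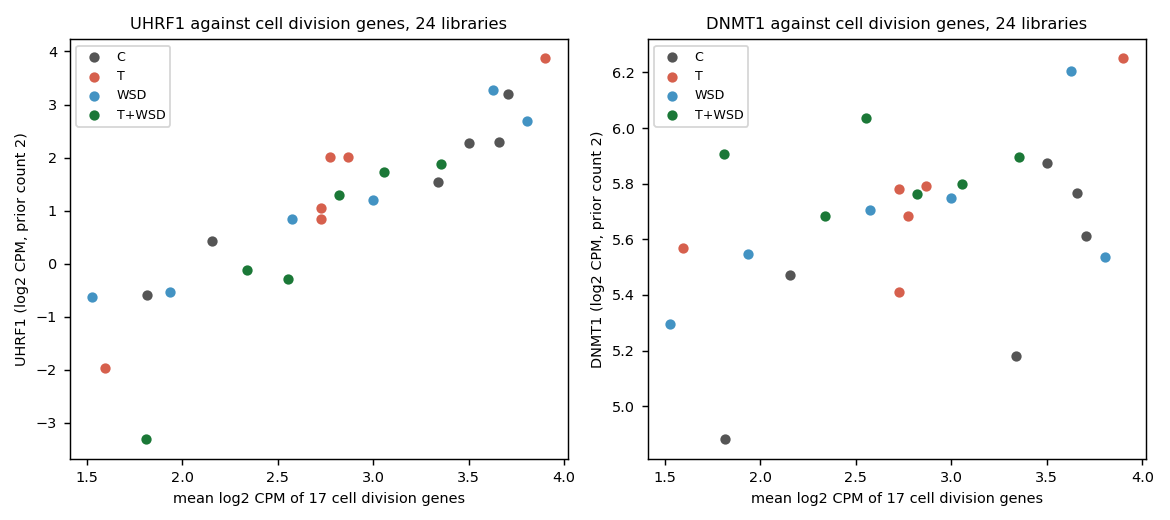
Log2 CPM (prior count 2) of *UHRF1* (left) and *DNMT1* (right) against the mean log2 CPM of 17 cell division genes, 1 point per library, coloured by group. *UHRF1* rises with the list (r = 0.91 over 24 libraries, 0.92 within groups), and *DNMT1* scatters more widely (r = 0.46, and 0.63 within groups).

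*DNMT3A* (ENSMMUG00000013565), a de novo methyltransferase, was the gene whose level differed least between *T* + *WSD* and *C*. It ran from 31.4 to 41.3 CPM in *T* + *WSD*, 28.8 to 41.1 in *C*, 32.3 to 37.6 in *T* and 22.6 to 38.0 in *WSD*, with medians of 34.3, 35.3, 34.9 and 33.5 CPM. The groups overlapped throughout. The means were 35.2 ± 5.31, 34.9 ± 1.75, 31.6 ± 6.62 and 35.1 ± 3.73 CPM in *C*, *T*, *WSD* and *T* + *WSD* (SD, n = 6 each). The log2 fold change in *T* + *WSD* against *C* was -0.01 (SE 0.12, adjusted p = 0.977), and its sign turned under other library scalings. The lowest mean was in *WSD*, at -0.15 on the log2 scale against *C* (SE 0.12, adjusted p = 0.500). Over the 24 libraries *DNMT3A* ran against the list of methyl donor and folate genes (r = -0.58, adjusted permutation p = 0.0232). That r was -0.30 after leaving out 2 libraries and -0.58 within groups. With other readers r was 0.53 (adjusted permutation p = 0.0439), and 0.52 within groups. By rho neither passed (adjusted permutation p = 0.0765 and 0.0684).

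*DNMT3B* (ENSMMUG00000019474), the other de novo enzyme, had 6 to 86 counts per library. It ran from 1.93 to 3.58 CPM in *T* + *WSD*, 1.86 to 2.53 in *C*, 1.66 to 3.12 in *T* and 0.813 to 2.87 in *WSD*, with medians of 2.89, 2.25, 2.27 and 2.17 CPM. In *T* + *WSD*, 5 of 6 animals lay above every *C* animal, and the lowest lay inside the *C* range. Mean levels were 2.13 ± 0.758 CPM in *WSD*, 2.23 ± 0.273 in *C*, 2.30 ± 0.523 in *T* and 2.87 ± 0.593 in *T* + *WSD* (± SD, 6 animals each), in rising order, and no neighbours differed by more than the larger of their SDs. The *T* + *WSD* difference from *C* was 0.34 on the log2 scale (SE 0.23, adjusted p = 0.319). It was 0.17 (SE 0.24, adjusted p = 0.727) without the high-share libraries, and the 2 highest *T* + *WSD* animals were high-share libraries.

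Of the TET dioxygenases, which oxidize 5-methylcytosine to 5-hydroxymethylcytosine and beyond, *TET1* (ENSMMUG00000023198) was not called, and its highest mean was in *T* + *WSD*. It ran from 18.3 to 21.5 CPM there with a median of 19.2, from 11.5 to 18.8 in *C* with a median of 13.7, from 9.65 to 17.2 in *T* with a median of 15.96, and from 8.94 to 22.2 in *WSD* with a median of 15. All 6 *T* + *WSD* animals lay above every *T* animal, 3 lay above every *C* animal, and all lay inside the *WSD* range.

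The mean *TET1* level was 19.7 ± 1.38 CPM in *T* + *WSD*, against 15.1 ± 5.10 in *WSD*, 14.5 ± 2.49 in *C* and 14.4 ± 3.39 in *T* (SD, n = 6 each). The lower 3 groups differed by less than their SDs, and *T* + *WSD* lay above *WSD* by less than the SD of *WSD*. The log2 fold change was 0.44 (SE 0.19, unadjusted p = 0.0290, adjusted p = 0.109) against *C* and 0.45 (SE 0.19, unadjusted p = 0.0256, adjusted p = 0.136) against *T* in edgeR. With only the compared groups in the fit, adjusted p was 0.0249 against *C* and 0.0471 against *T*, with the fold change still under 1.5. The interaction coefficient of 0.38 (SE 0.26) had an adjusted p of 0.577. *TET1* ran with the endothelial list over the 24 libraries (r = 0.62, adjusted permutation p = 0.0121; rho = 0.63, adjusted permutation p = 0.0136), with r = 0.61 after leaving out 2 libraries and 0.51 within groups. Against the mesothelial list r was -0.49 (adjusted permutation p = 0.0661; rho = -0.53, adjusted permutation p = 0.0539), and with that list as a covariate the *T* + *WSD* difference from *C* was 0.22 (SE 0.27, adjusted p = 0.9999). With the NuA4/TIP60 partners of *DMAP1* the r of *TET1* was -0.58 (adjusted permutation p = 0.0193), and -0.43 within groups.

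*TET2* (ENSMMUG00000017831) ran from 71.4 to 83.9 CPM in *T* + *WSD*, 76.1 to 128 in *C*, 56.1 to 112 in *T* and 55.0 to 92.2 in *WSD*. Medians were 79.8, 82.6, 78.8 and 71.9 CPM. The highest *C* library, replicate 1, which also had the highest mesothelial sum, lay far above the next at 86.0 CPM, and the *T* + *WSD* animals spanned the narrowest range. By mean the order was *WSD* (72.5 ± 14.4 CPM), *T* + *WSD* (78.4 ± 4.66), *T* (80.6 ± 21.7) and *C* (88.7 ± 19.5), and no neighbours differed by more than the larger of their SDs (n = 6 each). The log2 fold changes against *C* were -0.29 (SE 0.16, adjusted p = 0.326) in *WSD* and -0.18 (SE 0.16, adjusted p = 0.472) in *T* + *WSD*. Without *C* replicate 1 they were -0.16 (adjusted p = 0.708) and -0.03 (adjusted p = 0.938) in edgeR. Over the 24 libraries *TET2* had r = 0.53 with other readers, 0.41 after leaving out 2 libraries and 0.59 within groups. With the adipocyte list r was -0.54, -0.26 after leaving out 2 libraries and -0.52 within groups. Adjusted permutation p was 0.0439 for both by r, and 0.114 and 0.159 by rho.

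*TET3* (ENSMMUG00000020551) ran from 11.9 to 16.7 CPM in *T* + *WSD*, 7.87 to 13.2 in *C*, 9.28 to 13.3 in *T* and 6.78 to 15.3 in *WSD*. Medians were 12.8, 11.5, 11.7 and 11.6 CPM, and the 4 groups overlapped. The means were 10.96 ± 1.97 CPM in *C*, 11.3 ± 3.31 in *WSD*, 11.7 ± 1.41 in *T* and 13.6 ± 1.85 in *T* + *WSD* (± SD, 6 animals each), and only the last step was larger than an SD of its neighbours. Against *C* the *T* + *WSD* log2 fold change was 0.31 (SE 0.16, adjusted p = 0.195). *TET3* ran with the fibroblast list over the 24 libraries (r = 0.61, adjusted permutation p = 0.0121), with rho = 0.59 (adjusted permutation p = 0.0221) and r = 0.66 within groups. With other erasers and base excision genes r was -0.53 (adjusted permutation p = 0.0445), -0.34 after leaving out 2 libraries and -0.41 within groups. By rho alone the macrophage list (0.58, adjusted permutation p = 0.0264) and the NuA4/TIP60 partners of *DMAP1* (-0.57, adjusted permutation p = 0.0295) passed.

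**Figure D4:**
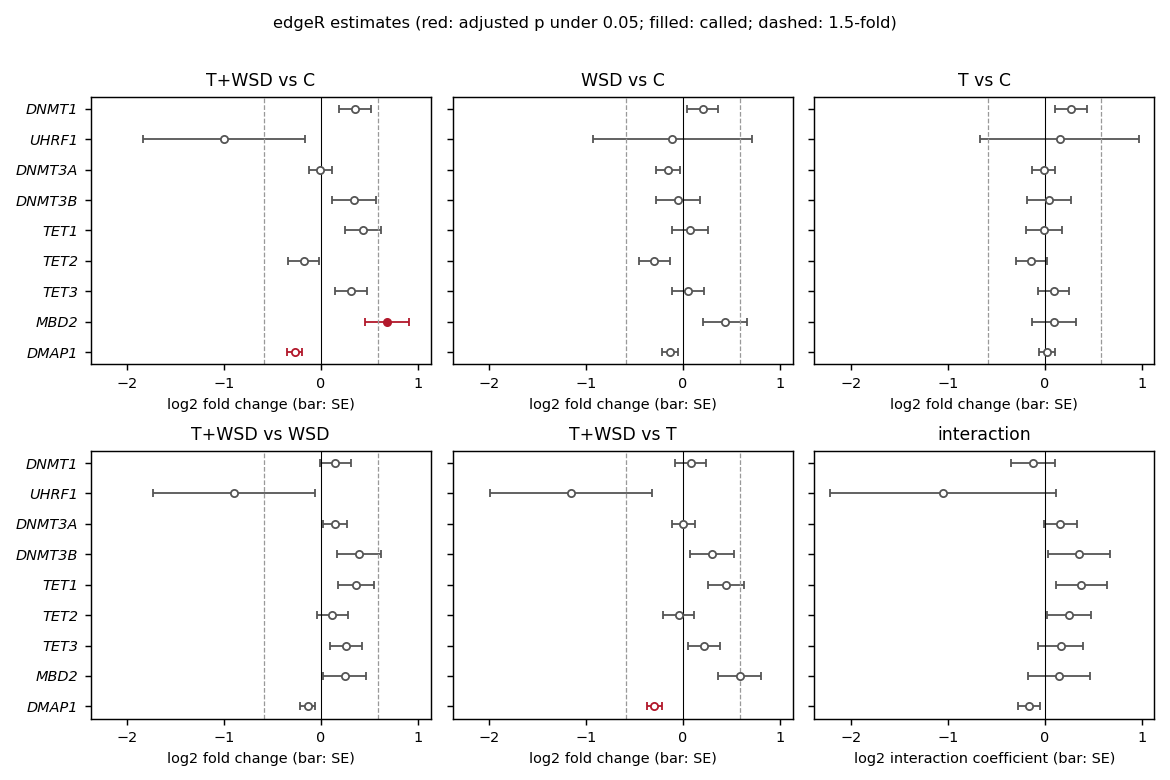
edgeR log2 fold changes (horizontal axis, bars are SE) of the 9 genes in 5 comparisons, and the interaction coefficient in the last panel; red marks an adjusted p under 0.05, filled points are called, and dashed lines are 1.5-fold. The called point is *MBD2* in *T* + *WSD* against *C*, at 0.68, and *DMAP1* is red and unfilled against *C* (-0.27) and against *T* (-0.29).

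The 9 genes did not vary as 1 block. Over the 24 libraries the closest pairs in log2 level were *DNMT3A* with *TET3* (r = 0.71, and 0.77 within groups), *TET1* with *TET3* (r = 0.70 and 0.64) and *DNMT3B* with *TET1* (r = 0.68 and 0.62). *TET2* ran against *DNMT1* (r = -0.45 and -0.43) and against *UHRF1* (r = -0.45 and -0.55). *MBD2* and *DMAP1* had r = -0.50 over all libraries and -0.15 within groups. These values describe the 24 libraries, which share depth differences and tissue makeup, and carry no test. One library, *WSD* replicate 20, a high-share library, was the lowest of all 24 for 5 of the 9 genes (*DNMT3A*, *DNMT3B*, *TET1*, *TET2* and *TET3*), and it was the lowest for 10.1% of the tested genes with a single lowest library.

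By the same measure over 24 libraries, the tested genes most like each of the others were the following. *MBD2* was closest to *SPTBN1* (r = 0.91), a spectrin of the membrane skeleton, *ITSN1* and *ATXN1L* (0.90 each). *DMAP1* was closest to *ZNF581* (r = 0.89), *POLR3C* (0.87), a subunit of RNA polymerase III, and *FUZ* (0.84). *DNMT1* was closest to *FAM78A* and *CMKLR1* (r = 0.86 each), the latter the chemerin receptor, and *SDC3* (0.85). *DNMT3A* was closest to *NYNRIN* (r = 0.87), *BOC* (0.84) and *PLXNB2* (0.81), and *DNMT3B* to *PIF1* (0.83), a DNA helicase, *GDPD3* (0.81) and *EXOC3L4* (0.80). Among the TET genes, *TET1* was closest to *RASSF10* (r = 0.83), *TSHZ1* and *NR2F2* (0.81 each), *TET2* to *PCMTD2* (0.90), *GAB1* and *MCM9* (0.88 each), and *TET3* to *SLC12A9* (0.85), *RIPOR3* (0.82) and *SHKBP1* (0.81).

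Other genes of the same machinery were counted from lists of writers and maintenance factors, erasers and base excision, readers, the partners of *MBD2* and of *DMAP1*, and the methyl donor cycle. Their counts in *T* + *WSD* against *C* stand beside 10.01% of all tested genes called and 32.1% with an unadjusted p under 0.05. In *T* + *WSD* against *C*, 2 of 8 tested writers and maintenance factors fell and none rose, with a median log2 fold change of -0.44 and 6 unadjusted p under 0.05. *UHRF2*, a relative of *UHRF1* that binds hydroxymethylated DNA, went from 94.8 ± 25.9 CPM in *C* to 61.7 ± 4.34 in *T* + *WSD* (log2 fold change -0.62, SE 0.14, adjusted p = 0.00739), with 82.1 ± 14.98 in *T* and 68.1 ± 9.81 in *WSD*. All 6 *T* + *WSD* animals, at 57.4 to 69.9 CPM, lay below the lowest *C* animal at 75.3. *CDCA7L* went from 42.8 ± 24.04 to 22.4 ± 4.84 CPM (-0.93, SE 0.27, adjusted p = 0.0233), and its ranges overlapped, 23.8 to 88.0 CPM in *C* and 17.9 to 29.9 in *T* + *WSD*. Without *C* replicate 1, *UHRF2* was at -0.44, under the 1.5-fold threshold, with an adjusted p of 0.0211, and *CDCA7L* at -0.57 with an adjusted p of 0.0992 in edgeR. *UHRF2* was at -0.58, just under the threshold, without *T* + *WSD* replicate 8, and *CDCA7L* had adjusted p of 0.0526 and 0.0521 without *T* + *WSD* replicates 8 and 9. With the mesothelial mean as a covariate the values were -0.11 and -0.08 (adjusted p = 0.9999 for both).

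Of 12 tested erasers and base excision genes, none was called in *T* + *WSD* against *C*, with 2 unadjusted p under 0.05 and a median of -0.15. Those were *UNG*, the uracil glycosylase, at -0.51 (SE 0.12, adjusted p = 0.00940), and *MBD4*, a glycosylase that also binds methylated sites, at -0.47 (SE 0.12, adjusted p = 0.0111), both short of 1.5-fold. The list held 1 interaction call, *OGT*, which encodes the O-GlcNAc transferase that binds TET proteins. It ran from 202 to 259 CPM in *T* + *WSD*, 182 to 240 in *C*, 133 to 204 in *T* and 140 to 192 in *WSD*. Its interaction coefficient was 0.76 (SE 0.14, adjusted p = 0.0289), with means of 228 ± 19.9 CPM in *T* + *WSD*, 207 ± 23.5 in *C*, 172 ± 23.98 in *T* and 162 ± 19.04 in *WSD*. The 2 single treatments lay below *C* in mean level, at -0.26 (adjusted p = 0.547) and -0.35 (adjusted p = 0.131). Without the 8 high-share libraries the coefficient was 0.65 (SE 0.17, adjusted p = 0.343), in a fit that called 2 of 15448 tested genes for the interaction.

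Among 13 tested readers other than *MBD2*, 1 was called, *UHRF2* again, the median was 0.01 and 6 had an unadjusted p under 0.05. None of the 12 NuRD partners of *MBD2* was called, with a median of -0.10 and 4 unadjusted p under 0.05. *RBBP4*, a histone chaperone, was at -0.40 (SE 0.09, adjusted p = 0.00813), and the deacetylase *HDAC1* at -0.46 (SE 0.12, adjusted p = 0.0153). Of the 17 NuA4/TIP60 partners of *DMAP1*, none was called, the median was -0.25 and 10 had an unadjusted p under 0.05. The helicase pair *RUVBL2*, at -0.54 (SE 0.10, adjusted p = 0.00322), and *RUVBL1*, at -0.42 (SE 0.10, adjusted p = 0.00844), had the smallest p. Mean *RUVBL2* was 29.8 ± 3.19 CPM in *C* and 20.4 ± 1.04 in *T* + *WSD*, with no overlap, 25.3 to 33.5 against 19.1 to 21.5 CPM.

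In all, 93 different genes of these lists and the cell division list were tested. Adjusted p was under 0.05 for 23 of them, 17 lower and 6 higher in *T* + *WSD* than in *C*, where 17.1% of all tested genes met that threshold. How those 17.1% split into lower and higher was not computed. Of the 1522 genes that also passed the fold threshold, 718 were higher. The median log2 fold change of the 93 was -0.14, beside -0.04 over all tested genes. Of the 93, 4 also passed the fold threshold, *UHRF2* and *CDCA7L* lower and *BHMT2* and *PEMT* higher, where 10.01% of all tested genes were called. Among the 93, edgeR called none in *WSD* or in *T* against *C*, with 15 and 6 unadjusted p under 0.05, and none in *T* + *WSD* against *WSD*, with 25. Over all tested genes 18.5%, 8.63% and 20% had an unadjusted p under 0.05, in the same order. Of the 93, edgeR called 2 in *T* + *WSD* against *T*, *BHMT2* and *CBS*, and 1 in the interaction, *OGT*. There 3.77% and 0.809% of all tested genes were called.

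**Figure D5:**
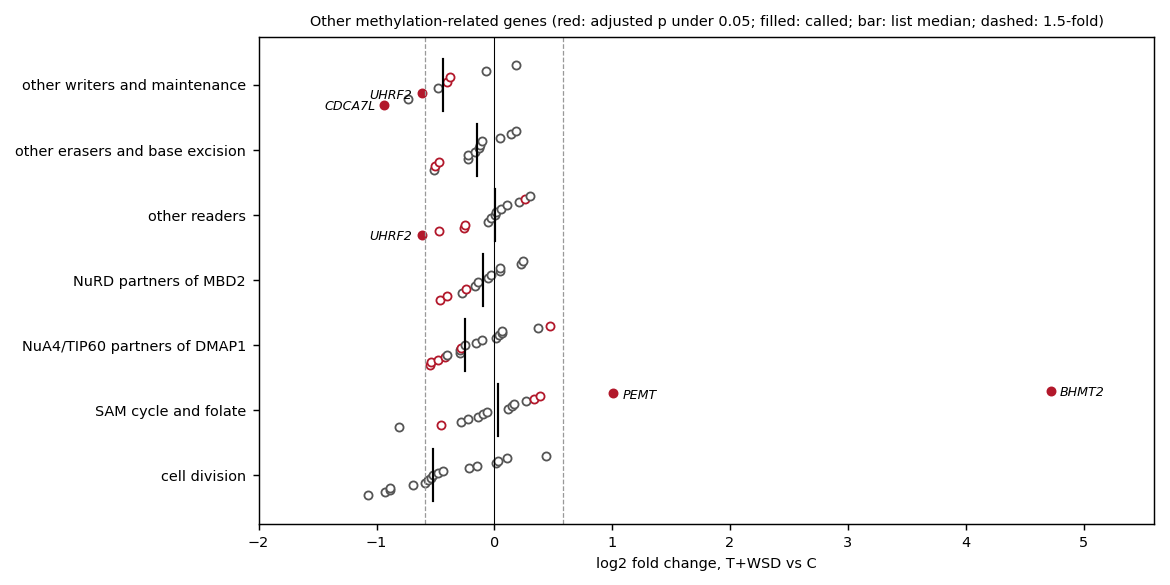
Log2 fold change in *T* + *WSD* against *C* (horizontal axis) of each tested gene of 7 lists, none of which holds the 9 genes; red has an adjusted p under 0.05, filled points are called and named, the black bar is the list median and dashed lines are 1.5-fold. *UHRF2*, which stands in 2 lists, and *CDCA7L* lie to the left of the threshold and *PEMT* and *BHMT2* to the right.

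The methyl donor of the DNA methyltransferases is S-adenosylmethionine, made from methionine. Of 16 tested genes of that cycle and of folate metabolism, 2 rose in *T* + *WSD* against *C* and none fell, with a median of 0.03 and 6 unadjusted p under 0.05. *BHMT2*, which remethylates homocysteine, had 0 to 31 counts per library in *C* (0.344 ± 0.490 CPM) and 45 to 321 in *T* + *WSD* (9.14 ± 3.39 CPM), a fitted log2 fold change of 4.72 (SE 0.93, adjusted p = 0.00393). It was at 0.231 ± 0.228 CPM in *T* and 5.03 ± 5.20 in *WSD*, and *T* + *WSD* was also called higher than *T* (5.40, SE 0.98, adjusted p = 0.00557). The 6 *T* + *WSD* animals lay between 4.95 and 13.5 CPM, above every *C* and *T* animal, and overlapped with *WSD*, which ran from 0.542 to 12.3 CPM. Without *C* replicate 6, the *C* animal with the most counts, the fitted value against *C* was 6.25 (SE 1.05, adjusted p = 0.00266), and without the 8 high-share libraries it was 4.44 (SE 1.08, adjusted p = 0.0632). With the mesothelial mean as a covariate it was 3.69 (SE 1.184, adjusted p = 0.9999) against *C* and 4.53 (SE 1.13, adjusted p = 0.253) against *T*. Reads that *BHMT2* shares with its close relative *BHMT* may be divided between them, and *BHMT* itself did not pass the filter.

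*PEMT*, which uses the donor to make phosphatidylcholine, went from 14.3 ± 4.54 CPM in *C* to 28.8 ± 10.1 in *T* + *WSD* (log2 fold change 1.01, SE 0.30, adjusted p = 0.0252), with 16.5 ± 8.09 in *T* and 26.9 ± 9.30 in *WSD*. Its edgeR adjusted p was 0.0641, 0.0585 and 0.0758 without *C* replicate 1, *C* replicate 3 and *T* + *WSD* replicate 9. With the mesothelial mean as a covariate the *PEMT* value was 0.60 (SE 0.45, adjusted p = 0.9999). *CBS*, which draws homocysteine out of the cycle, was called in *T* + *WSD* against *T*, where it fell from 16.3 ± 17.3 to 1.83 ± 0.949 CPM (-3.18, SE 0.80, adjusted p = 0.0252). The *T* range for *CBS*, 0.406 to 49.0 CPM, held the whole *T* + *WSD* range of 0.716 to 3.18 CPM. The call was lost without *T* replicate 16 (-2.43, adjusted p = 0.0677), and without *T* + *WSD* replicate 8, 10 or 12 adjusted p was 0.05002, 0.0612 and 0.0525 in edgeR. With the mesothelial covariate it was -3.57 (SE 0.98, adjusted p = 0.341).

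The other cell marker lists moved less than the mesothelial one in *T* + *WSD* against *C*. Calls higher were 3 of 6 endothelial markers, 2 of 6 smooth muscle and pericyte markers, 1 of 10 adipocyte markers (*LEP*), 1 of 8 macrophage markers and 1 of 7 fibroblast markers, and 2 of 5 neutrophil and erythroid markers were called lower. None of 7 T and NK cell markers and none of 4 B and plasma cell markers was called, and none had an unadjusted p under 0.05. Summed endothelial markers were 934 to 1579 CPM in *C* and 1721 to 2734 CPM in *T* + *WSD*, without overlap, and summed smooth muscle and pericyte markers were 674 to 1356 and 1228 to 1724 CPM. What part these cells had in the levels of the 9 genes was not tested beyond the covariates above.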

How the data were processed

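RNA of omental WAT, depleted of ribosomal RNA, was sequenced as single reads from 24 animals. The authors aligned the reads to the genome build rheMac8 and deposited a table of whole-number counts, not normalized, with a column for each animal. The submitters' processing notes name FastQC 0.11.5, Trimmomatic 0.36, STAR 2.5.2b and DESeq2 1.18.1. The counting tool and its strand setting are not given in the sources used here. Groups came from the sample labels.

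Counts were filtered with filterByExpr (minimum count 10, minimum total count 15), scaled with TMM and tested with the two-sided quasi-likelihood F-test of edgeR 4.0.16 in R 4.3.3 (robust=TRUE, legacy=TRUE), in 1 fit with 4 group means. Adjusted p-values are Benjamini-Hochberg over all 15207 tested genes. The study's methods use DESeq2, and DESeq2 1.42.0 was an alternative here. No gene of the 9 was below the filter, so the exact test planned for such genes was not needed. The code was tested on simulated data. Correlations used log2 CPM with a prior count of 2 and two-sided permutation tests with 100000 resamples. These shuffled all 24 libraries, with the groups ignored.

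The members and lists were chosen with earlier results of these data known, and the 8 high-share libraries were known from an earlier analysis. Lists were written from general knowledge. Named genes were all 9 members, every list gene called in a comparison, otherwise the 2 per list with the smallest p in *T* + *WSD* against *C*, and the 3 genes most like each member. Symbols came from a gene name table. No genome of the files' build, gene positions or sequences were used here. Total counts per library were 6899185 to 28270776, and 3125930 to 27945191 without ENSMMUG00000038258. They limit the precision of low genes such as *UHRF1* and *DNMT3B*, and floors cover counting error only. No pair of the 60 within-group pairs of libraries was identical.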

Additional observations from a re-analysis of the deposited data

Results flagged for a closer look

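Single libraries stood apart in 3 of the 36 groups of values tested (9 genes in 4 groups of 6), where chance marks about 1 group in 20. *UHRF1* in *T* replicate 13 was at 14.5 CPM, with the next *T* animal at 3.95 CPM. *TET2* in *C* replicate 1 was at 128 CPM, with the next *C* animal at 86.0 CPM. *DMAP1* in *T* + *WSD* replicate 8 was at 20.1 CPM, with the next *T* + *WSD* animal at 22.02 CPM. In each case the gap to the nearest animal, as a share of the group's range, was above Dixon's critical value for 6 samples. All 3 were high-share libraries, which also had the fewest total counts.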

How the results depend on the processing

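For *T* + *WSD* against *C*, the count of 1 called gene among the 9 (*MBD2*) became 0 with no filter on low counts, without the 8 high-share libraries, with those 8 alone (chosen after seeing the data), and with the mesothelial or the macrophage mean as a covariate, and 2 with no fold threshold (*DMAP1* added). With each library left out it was 0 to 1. Over all tested genes, the calls in this comparison were 1361 of 25131 with no filter and 78 of 15448 without the 8 high-share libraries. They were 0 of 13799 with those 8 alone, and 0 and 1071 of 15207 with the mesothelial and the macrophage covariate. For *T* + *WSD* against *T*, the count of 0 among the 9 genes became 1 with no fold threshold (*DMAP1*). It became 1 with only the compared groups in the fit (*MBD2*), and 0 to 1 with each library left out. The cause was not tested. The other 4 comparisons gave 0 under every alternative run, these and DESeq2, other scalings, at least 10 counts in every library, other dispersion settings, a covariate for the high-share libraries, and ENSMMUG00000038258 left out. Leaving out libraries also leaves fewer animals. Of 2085 values of the 9 genes under alternatives, 2068 kept their side of the thresholds, 13 lost it and 4 gained it, no called value changed sign, and 77 values that were not called did. Alternatives on the called list genes were chosen after seeing the data, and 35 of those values lost the call, among them all 7 values from the 8 high-share libraries alone. The fit of those 8 called 0 of 13799 tested genes in every comparison. No paired analysis was possible because the replicate numbers run from 1 to 24 over the 4 groups, so no groups share a number.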

Other observations

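*USP7*, which encodes a deubiquitinase that binds *DNMT1* and *UHRF1*, did not pass the filter, with 0 to 10 counts per library. *DNMT3L*, the catalytically inactive partner of the de novo enzymes, had 0 to 9 counts and was not tested either. *DPPA3*, *GADD45A*, *CXXC4*, *MAT1A* and *BHMT* were listed and not tested.

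The *T* + *WSD* group had the smallest coefficient of variation of the 4 groups for 4 of the 9 genes, *DNMT1*, *TET1*, *TET2* and *DMAP1*. Over all tested genes that was so for 50.6%, so the narrow *T* + *WSD* spread of these genes was shared with the rest of the table. The observation was chosen after its values were seen.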
